A study of Mus musculus with 32 samples.

Results

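The genes described here encode the proteins of the cytosolic ribosome, measured in mouse oocytes before and after meiotic maturation. They were chosen by symbol, as protein-coding genes named Rpl or Rps with a number, together with Rplp0 to Rplp2 and Rpsa. Kinases with similar names, pseudogenes and retrocopies were left out. This gave 85 of the 37441 genes in the count table, of which 77 were core genes (46 of the large subunit and 31 of the small) and 8 were paralogs with a -like symbol, such as Rps27l. All 77 core genes and 7 of the 8 paralogs passed the filter on low counts. The exception was Rpl3l, a muscle paralog of Rpl3, which had 17 reads over the 16 GV libraries, 16 of them in a single F1 library of batch 2, and 2 reads over the 16 MII libraries.

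The study asked how oocytes of F1 hybrid females differ from those of the parental inbred strains. Germinal vesicle (GV) oocytes, arrested in the first meiotic prophase, and metaphase II (MII) oocytes, the mature eggs, were taken from B6, D2 and B6xD2 F1 females of 8 to 12 weeks, with no allele or treatment named beyond the strain. GV oocytes were collected in medium with the phosphodiesterase inhibitor IBMX, the zona was removed at both stages, and each library was a pool of 9 to 20 oocytes from a single mother. B6 gave 5 GV and 6 MII libraries, F1 gave 6 GV and 5 MII, D2 gave 5 of each stage, and every group had 3 libraries of a first batch and 2 or 3 of a second one, sequenced on another HiSeq model.

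Each cytosolic ribosome has a small subunit, which reads the message, and a large subunit, which joins amino acids. In growing mammalian cells the messages of nearly all ribosomal proteins begin with a C and a run of pyrimidines, the terminal oligopyrimidine (TOP) tract, through which LARP1 and the mTOR kinase hold back or release their translation together. The oocyte builds its store of ribosomes during growth. During maturation transcription is silent, so that messages are translated, stored or degraded, and many lose their poly(A) tails.

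Libraries held 18.7 to 39.7 M counts (M, counts in units of 1e6), with a median of 28.1 M. Oocyte marker genes such as Zp3, Gdf9 and Bmp15 were abundant in every library, with a mean over 12 markers of 8.05 to 9.49 log2 CPM (counts scaled to a library of 1e6). The mean over 25 granulosa and cumulus markers was 3.05 to 4.68 log2 CPM in the 9 GV libraries of batch 1, and 2.70 to 4.67 in 4 of the 7 GV libraries of batch 2. It was 0.59 to 1.15 in the other 3 (B6 batch 2 replicate 1, F1 batch 2 replicate 1 and D2 batch 2 replicate 2) and −0.41 to 1.33 in the 16 MII libraries. The summed level of these markers was 400 to 4505 CPM over the GV libraries and 361 to 577 CPM over the MII libraries. Of the 24 markers tested between the stages 17 fell, 3 rose and 4 did not pass, against 29.0% falling and 22.9% rising over all genes. Most of the MII sum (mean 469 CPM) came from markers that fell little or not at all. Serpine2, which rose, averaged 245 CPM in MII, Nr5a2 82.9, Esr2 59.0 and Cyp19a1 31.1, against 195, 110, 59.6 and 30.8 in GV. In the 3 GV libraries with the low marker level, 3 of the 25 markers (Amh, Ptx3 and Tnfaip6) were at 0 reads throughout, but Ptx3 was at 0 in 12 and Tnfaip6 in 7 of all 16 GV libraries. Inhba averaged 36.8 CPM in those 3 libraries, against 338 over all GV and 2.91 over all MII libraries. Cyp11a1 averaged 8.89 CPM there, against 104 and 9.06. The summed level of 13 stroma, blood and vessel markers was 19.1 to 665 CPM in GV and 34.5 to 79.0 CPM in MII, with 4 globin genes at 0 reads in every MII library. Nearly all of the MII sum (mean 53.1 CPM) was Pecam1, which rose and averaged 36.2 CPM in GV and 49.3 in MII. Of the 12 markers tested 9 fell, 1 rose and 2 did not pass, against 29.0% falling and 22.9% rising over all genes. Within the GV libraries of batch 1, F1 batch 1 replicate 5 had both the highest granulosa marker level (4.68) and the highest mean over the core ribosomal protein genes (6.93 log2 CPM), and the part of these cells in the results was not tested. In such pooled samples fewer cells of a type and less RNA per cell cannot be told apart, and each level is a share of its library, since RNA per oocyte was not measured.

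Messages of ribosomal proteins made up a smaller part of the reads of the MII pools than of the GV pools. In batch 1 the 77 core genes took 0.773 to 1.23% of a GV library's counts (median 0.924%) and 0.147 to 0.261% of an MII library's (median 0.200%). In batch 2 the shares were 0.244 to 0.423% in GV and 0.0894 to 0.113% in MII. The stages did not overlap within either batch, although the lowest GV library of batch 2 lay below the highest MII library of batch 1. On the log2 CPM scale the mean over the core genes was 6.20 to 6.93 in GV and 3.05 to 4.17 in MII in batch 1, and 4.41 to 5.12 and 2.24 to 2.63 in batch 2.

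**Figure D1:**
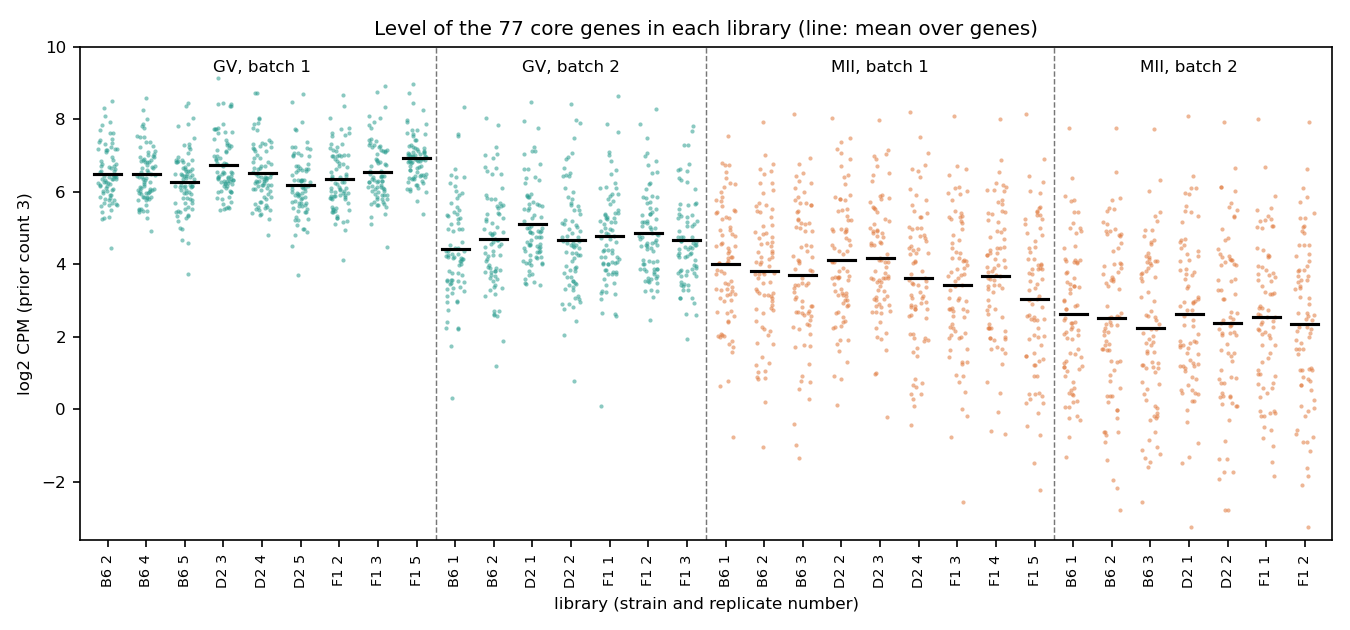
Level of each of the 77 core ribosomal protein genes (points, log2 CPM with a prior count of 3) in each of the 32 libraries, ordered by stage, batch and strain, with the mean over genes as a line. The genes sit close together in the GV libraries of batch 1 (SD among genes 0.65 to 0.87) and are spread widely in MII (SD 1.59 to 2.32).

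The genes also spread apart. The SD among the core genes' log2 levels was 0.65 to 0.87 in GV libraries of batch 1, 1.13 to 1.45 in GV libraries of batch 2, and 1.59 to 2.32 in MII libraries of both batches. The plot of levels by library shows the same thing, since some genes stay near their GV level in MII while others approach 0. Per kilobase of transcript, the level of the highest core gene was 52.9 times that of the lowest in GV and 209 times in MII. The GV value rests on Rps20, whose length of 3706 nt was the longest of the core genes (median 729 nt). The ratio of the upper to the lower quartile was 2.52 in GV and 5.15 in MII.

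Averaged over the strains, 76 of the 77 core genes fell between GV and MII, and Rpl4 did not pass the test (quasi-likelihood test of edgeR, p adjusted by Benjamini-Hochberg over all 19003 genes tested, threshold 0.05). Of all genes tested, 29.0% fell and 22.9% rose. The median log2 change of the core genes was −2.50, with quartiles of −3.33 and −1.59, against a median of −0.06 over all genes. Of the core genes 68 fell by at least 2-fold, 26 by at least 8-fold and 6 by at least 32-fold, against 20.7%, 8.00% and 2.89% of all genes tested. For 61 core genes every MII library lay below every GV library of its own batch, in both batches, as it did for 2.39% of all genes tested. Genes of the small subunit had a median change of −2.86 and genes of the large subunit −2.09, and the difference between the subunits was not tested. Among the paralogs 5 fell, Rps27l rose and Rpl10l did not pass.

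**Figure D2:**
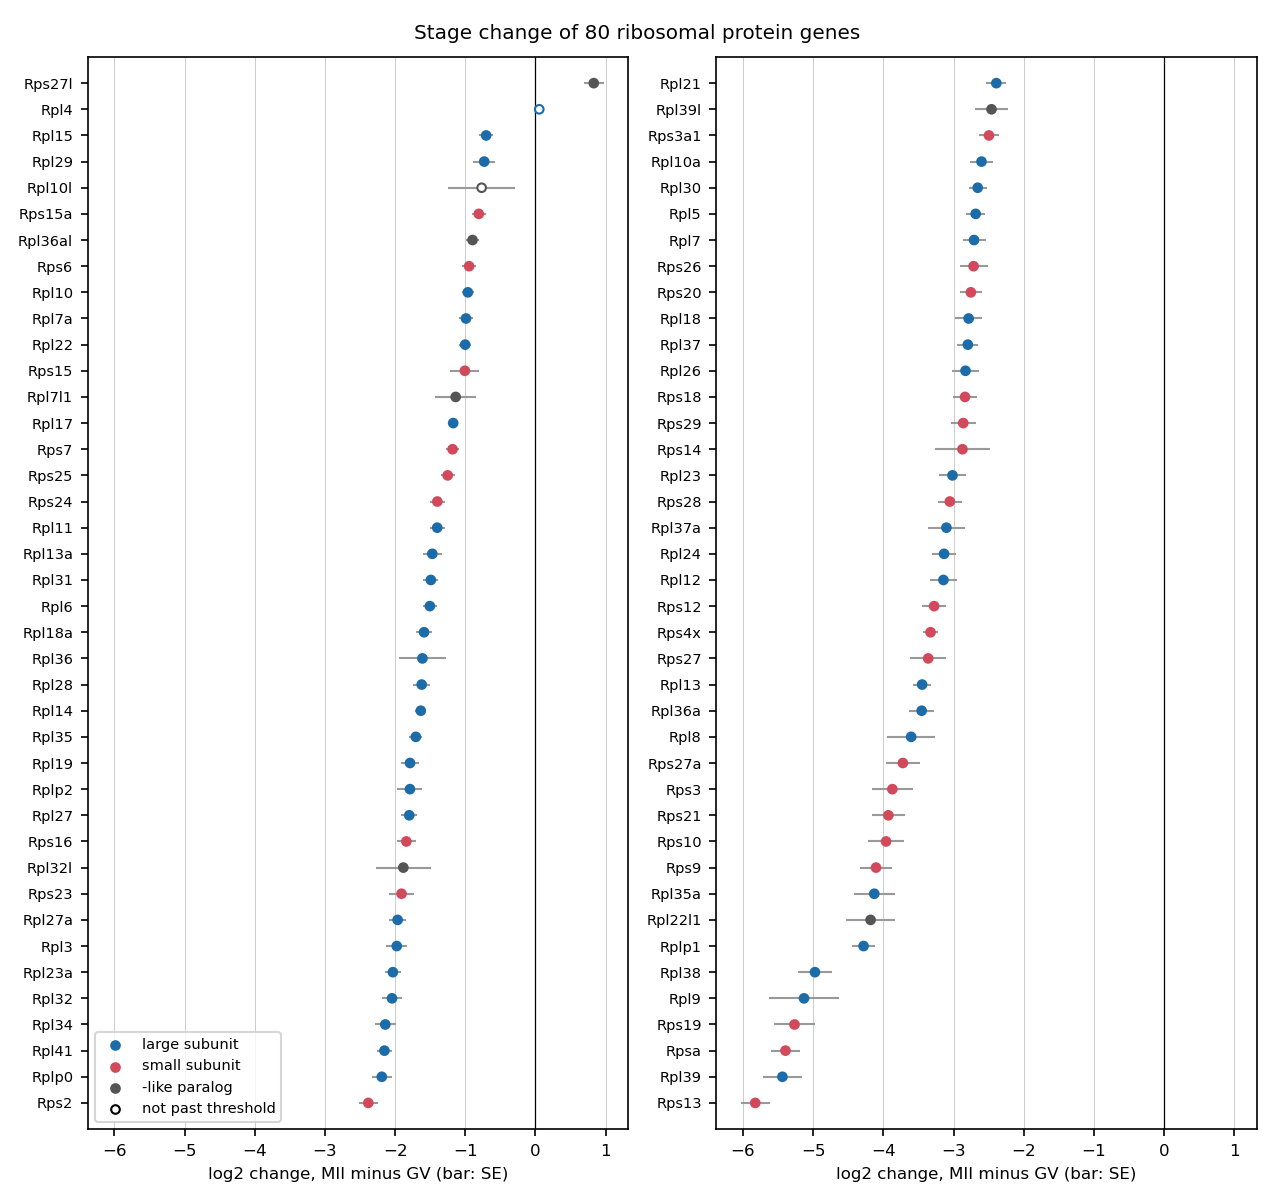
Log2 change from GV to MII, averaged over strains, of 80 tested ribosomal protein genes with its SE, from the highest to the lowest. Values run from 0.83 for Rps27l to −5.83 for Rps13, and open points (Rpl4 and Rpl10l) did not pass the threshold.

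Among the large falls were those of Rps13, Rpl39, Rpsa and Rps19. Rps13, of the small subunit, was at 96.6 to 175 CPM in GV and 0.635 to 4.60 CPM in MII in batch 1, and at 20.7 to 30.5 and 0.173 to 0.887 CPM in batch 2. It fell by 5.83 ± 0.20 on the log2 scale (SE). The stages were far apart in both batches. Rpl39, a very small protein lining the exit tunnel of the large subunit, was at 146 to 349 CPM in GV and 0.253 to 8.80 CPM in MII in batch 1, and at 39.9 to 60.9 and 0.766 to 2.77 CPM in batch 2, a fall of 5.44 ± 0.27. No MII library came near the GV range of either gene.

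Rpsa, a small subunit protein also known as the laminin receptor, was at 51.1 to 125 CPM in GV and 0.615 to 3.71 CPM in MII in batch 1, and at 18.7 to 48.8 and 0.217 to 2.35 CPM in batch 2. It fell by 5.39 ± 0.21 on the log2 scale (SE). Rps19 was at 30.7 to 93.6 CPM in GV and 0.109 to 1.85 CPM in MII in batch 1, and at 5.15 to 21.8 and 0.116 to 1.73 CPM in batch 2, and it fell by 5.27 ± 0.29. Its gene is mutated in human Diamond-Blackfan anaemia. Every one of these MII ranges lies below the lowest GV library of the same gene, in either batch.

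At the other end, Rpl4, a core protein of the large subunit, was at 198 to 332 CPM (median 236) in GV and 187 to 293 CPM (median 261) in MII in batch 1. In batch 2 it was at 192 to 262 CPM (median 236) in GV and 214 to 272 CPM (median 242) in MII. The ranges overlap almost wholly, and the change of 0.05 ± 0.07 on the log2 scale (SE, adjusted p = 0.518 in the edgeR test) turned to −0.01 with a filter of 1 CPM in at least 16 libraries and to −0.04 in batch 2 alone. Rpl4 was also among the 3 core genes that did not differ detectably between the batches.

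Among the small falls, that of Rpl15, described with the strain differences below, was 0.70 ± 0.10 on the log2 scale (SE), and Rpl29, a heparin-binding protein of the large subunit, fell by 0.73 ± 0.16. With the granulosa marker level as a covariate, neither Rpl15 nor Rpl29 passed, and Rpl29 did not pass in batch 2 alone.

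Sequences at the RefSeq starts (GRCm38.p6 table) of genes at the extremes are shown because their TOP tracts are the feature by which the family is thought to be regulated together. Each runs from 40 bases before the start to 30 bases from it on, and capitals mark the C followed by at least 4 pyrimidines that begins nearest to the start, within 25 bases. The first 3 genes are among those with the smaller changes, and the next 4 are among those that fell most. Rps15a fell by 0.48 on the log2 scale in B6, 0.64 in F1 and 1.30 in D2. Other core genes with small falls, such as Rpl29, are not shown, and a relation between tract and fall was not tested.
Rpl4, chr9:64173347-64173416, plus strand: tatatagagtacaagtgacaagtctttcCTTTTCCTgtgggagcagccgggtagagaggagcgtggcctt
Rpl15, chr14:18270957-18271026, minus strand: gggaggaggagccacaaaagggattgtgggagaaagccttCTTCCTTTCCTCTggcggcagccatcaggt
Rps15a, chr7:118116118-118116187, minus strand: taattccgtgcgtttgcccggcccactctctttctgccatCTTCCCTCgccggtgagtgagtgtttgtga
Rps13, chr7:116334161-116334230, minus strand: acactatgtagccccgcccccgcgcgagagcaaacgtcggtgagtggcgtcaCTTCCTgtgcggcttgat
Rpl39, chrX:37085193-37085262, minus strand: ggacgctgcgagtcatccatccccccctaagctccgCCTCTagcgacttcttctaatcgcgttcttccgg
Rpsa, chr9:120127726-120127795, plus strand: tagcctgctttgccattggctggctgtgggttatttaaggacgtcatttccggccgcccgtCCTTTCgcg
Rps19, chr7:24884873-24884942, plus strand: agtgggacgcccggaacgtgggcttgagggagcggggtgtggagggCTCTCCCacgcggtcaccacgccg
In Rpl4, which changed least, the marked tract has 8 bases and begins 12 bases before the listed start. In Rpl15 and Rps15a it begins exactly at the start and is 13 and 8 bases long, as it also begins there in Rps27, which fell by 3.36 on the log2 scale and is shown with its paralog. In Rps13, Rpl39, Rpsa and Rps19 it begins 4 bases before the start (Rpl39) or at base 7, 13 or 22 of the transcript, and it is 5 to 7 bases long. These lengths depend on the marking rule. In Rpl4, Rpl15, Rps15a and Rpsa, and in Rps27 shown further below, at least a single pyrimidine also stands directly before the capitals. In Rpl39 a longer run begins further into the transcript. Where a gene has several listed starts, the one whose tract begins nearest to it is shown, so the display favours tracts at the start. A listed start can also differ from the one used in oocytes, which these data do not show.

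A RefSeq start was matched for 57 of the 77 core genes. In the shares that follow, a gene with several listed starts counts if any of them has the motif, and the number of starts was not matched between the core genes and all genes. A C followed by 4 pyrimidines stood exactly at the start in 13 of them (22.8%), against 3.01% of the 27025 genes with a listed start, and somewhere within 25 bases of it in 84.2% against 59.3%. The same letters on the other strand, read as 4 purines and a G, were in 56.1% of the core genes and 65.0% of all genes. CTTTCC, which can overlap the tract, stood between 25 bases before and 30 after the start in 19.3% against 3.13% on the transcribed strand and in 1.75% against 2.91% on the other. Over the whole window of 250 bases before to 50 after the start, the ETS factor motif CCGGAAG was found on either strand in 42.1% against 9.93%, and the YY1 motif AAGATGG in 15.8% against 7.28%.

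The fall was seen in every strain. In B6, 75 of the 84 tested ribosomal protein genes fell (background 16.4% of all genes), in F1 80 fell (18.0%) and in D2 78 fell (15.6%). The median log2 change of the core genes was −2.27 in B6, −2.64 in F1 and −2.40 in D2. Across the 77 core genes the changes in B6 and in D2, which share no library but come from a fit with a common batch term, had a Pearson r of 0.932. Rps27l rose in each strain.

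The mean over the core genes was also compared within batch 2 by granulosa marker level. In the 3 GV libraries whose marker level lay in the MII range it was 4.41 to 4.77 log2 CPM, against 4.66 to 5.12 in the other 4 GV libraries of the batch and 2.24 to 2.63 in its 7 MII libraries. Of the 77 core genes, 63 were higher in all 3 of these GV libraries than in any MII library of batch 2, as were 6.11% of all genes tested, and 67 were so in the other 4, as were 8.22%. The median difference from MII was 1.90 log2 CPM for the 3 libraries and 2.28 for the other 4. With the marker level as a covariate over all libraries 73 ribosomal protein genes fell, and without the 3 libraries 81 did. In the main fit 81 fell, against 29.0% of all genes tested, and the shares over all genes in the other fits are not given here. The median log2 change of the tested ribosomal protein genes was −2.39 in the main fit. It was −1.95 with the covariate and −2.32 without the 3 libraries.

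Each gene was also tested against the family's own mean, by scaling every library to the mean log2 level of the core genes. On that scale 36 core genes fell less than the mean, 26 fell more and 15 did not pass, and 5 of the 7 paralogs departed. Because this scale follows the ribosomal protein genes, 88.1% of all genes tested departed from it. Large departures upwards were those of Rps27l at 3.39 ± 0.15, Rpl4 at 2.64 ± 0.13 and Rpl15 at 1.89 ± 0.15 on the log2 scale (SE). Large ones downwards were those of Rps13 at −3.27 ± 0.20, Rpl39 at −2.90 ± 0.21, Rpsa at −2.84 ± 0.19 and Rps19 at −2.67 ± 0.26.

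Across the 77 core genes, the stage change had a Spearman rho of 0.23 with transcript length and 0.01 with the share of a transcript's 50-base stretches that also occur in other genes. Its rho was −0.52 with the difference between the batches, which was estimated in the same fit from the same libraries. These are descriptions over genes that share libraries and depth. The stretches bear on counting, because the 50-base reads of a transcript with retrocopies can match more than a single place. The median core gene shared 61.2% of its stretches with other genes and the highest, Rps27, 98.6%. For Rps13 the share was 83.0%, for Rpl39 16.5% and for Rpl4 16.5%, so that the split of reads between many members and their copies is uncertain.

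Levels per kilobase in GV put Rpl41, which encodes an extremely short peptide, at the top with 725 ± 315 CPM per kb (SD, n = 16). Rpl31 followed with 254 ± 71.8, Rps27 with 251 ± 208, Rpl39 with 240 ± 161 and Rps29 with 219 ± 140, and these 4 did not differ beyond their spread, which includes the batches. The lowest were Rps20 at 13.7 ± 9.06, Rpl7 at 22.6 ± 13.3, Rpl3 at 24.7 ± 15.0, Rpl9 at 28.0 ± 26.1 and Rpl12 at 28.9 ± 13.3 CPM per kb. The length used for Rps20, 3706 nt, was the longest of the core genes (median 729 nt), and its rank rests on that length. Without division by length, Rps20 averaged 49.5 CPM and Rpl7 24.5 CPM in B6 GV libraries. In MII Rpl41 was still the highest at 166 ± 87.6 CPM per kb, while Rpl39 ranked 63 and Rps27 ranked 29 of 77. Using the longest transcript in place of the shortest lowered Rpl31 in GV to 118 CPM per kb, a move beyond its spread.

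Paralogs and their parents changed to different extents, so that the makeup of several pairs shifted. The ratio of each paralog to its parent was compared between the 16 GV and 16 MII libraries with a two-sided permutation test on log2 ratios, adjusted over 7 pairs. The clearest shift was in the pair of Rps27 and Rps27l, small subunit proteins that bind zinc. Rps27l is known as a target of p53. Rps27 was at 70.3 to 236 CPM in GV and 0.832 to 31.3 CPM in MII in batch 1, and at 9.88 to 30.2 and 0.830 to 5.05 CPM in batch 2. Rps27l was at 19.3 to 33.2 CPM in GV and 32.0 to 55.8 CPM in MII in batch 1, and at 4.31 to 13.4 and 12.4 to 22.9 CPM in batch 2. In batch 1 every GV level of the paralog lay below every GV level of its parent, while in batch 2 these ranges overlap. In MII every level of the paralog lay above every level of the parent in the same batch, in batch 1 by a narrow margin. That order depends on how reads were split between Rps27 and its retrocopy Rps27rt, which had about equal levels. With the 2 entries added, Rps27l was above the sum in 7 of 9 MII libraries of batch 1 and 7 of 7 of batch 2.

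The log2 ratio of Rps27l to Rps27 was −1.88 ± 0.80 in GV and 2.42 ± 1.31 in MII (SD, n = 16 each), a difference of 4.30 with an adjusted permutation p of 3.5e-05, the smallest this test could give. The difference was 4.33 in batch 1 and 4.28 in batch 2, and 4.35 with the reads of Rps27rt added to those of Rps27, a setting chosen after seeing the data. Taken singly, Rps27 fell by 3.36 ± 0.25 on the log2 scale and Rps27l rose by 0.83 ± 0.14 (SE, adjusted p in the edgeR test 8.68e-12 and 9.14e-06). The rise of Rps27l did not pass without a batch term (adjusted p = 0.0565). The starts of this pair and of Rpl36a and Rpl36al are shown because the members of each moved apart.
Rps27, chr3:90213619-90213688, minus strand: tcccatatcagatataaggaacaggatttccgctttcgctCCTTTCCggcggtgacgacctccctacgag
Rps27l, chr9:66946046-66946115, plus strand: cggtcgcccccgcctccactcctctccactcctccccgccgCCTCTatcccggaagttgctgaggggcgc
Rpl36a, chrX:134585614-134585683, plus strand: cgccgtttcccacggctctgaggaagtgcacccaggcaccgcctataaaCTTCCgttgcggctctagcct
Rpl36al, chr12:69184038-69184107, minus strand: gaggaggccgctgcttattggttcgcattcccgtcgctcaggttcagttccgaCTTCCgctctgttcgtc
Rps27 begins at its listed start with a marked tract of 7 bases, and that of Rps27l begins at base 2 and has 5. In Rpl36a and Rpl36al the tracts begin at bases 10 and 14 and both have 5 bases.

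Rpl36al is an autosomal copy of the X-linked Rpl36a. It was at 121 to 190 CPM in GV and 44.9 to 112 CPM in MII in batch 1, and at 68.9 to 94.9 and 29.5 to 58.4 CPM in batch 2. Its parent was at 45.1 to 118 and 1.27 to 9.82 CPM in batch 1, and at 10.6 to 20.2 and 1.08 to 3.00 CPM in batch 2. The paralog was the higher member at both stages, and its log2 ratio to the parent went from 1.70 ± 0.66 to 4.17 ± 0.59 (SD, n = 16), with adjusted permutation p = 3.5e-05. Rpl36a fell by 3.45 ± 0.18 and Rpl36al by 0.90 ± 0.09 on the log2 scale (SE).

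The pair of Rpl22 and Rpl22l1, RNA-binding proteins of the large subunit, shifted the other way. Rpl22 was at 43.6 to 75.9 CPM in GV and 22.3 to 32.0 CPM in MII in batch 1, and at 19.5 to 29.7 and 8.54 to 16.5 CPM in batch 2. Rpl22l1 was at 5.41 to 22.0 and 0.181 to 2.14 CPM in batch 1 and at 1.43 to 3.78 and 0 to 0.423 CPM in batch 2. The log2 ratio of paralog to parent went from −2.74 ± 0.81 to −5.59 ± 0.98 (SD, n = 16, adjusted permutation p = 3.5e-05). In MII Rpl22l1 was close to the detection limit, with 22 reads over the 7 libraries of batch 2, of which 2 were at 0. The size of the shift therefore depends on the prior count, at −2.85 in the main setting and −3.30 with a prior count of 1. Rpl22 fell by 1.00 ± 0.09 and Rpl22l1 by 4.18 ± 0.35 on the log2 scale (SE).

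Rpl39l, known from the testis, was at 13.2 to 30.0 CPM in GV and 0.724 to 9.55 CPM in MII in batch 1, and at 4.64 to 16.1 and 0.718 to 2.20 CPM in batch 2. It fell by 2.46 ± 0.23 on the log2 scale (SE), less than its parent, so that the log2 ratio went from −3.11 ± 0.53 to −0.03 ± 0.94 (SD, n = 16, adjusted permutation p = 3.5e-05). For Rpl7l1 and Rpl7 the ratio went from −2.28 ± 0.68 to −0.83 ± 1.20 (adjusted permutation p = 0.000336). Rpl7l1 fell by 1.14 ± 0.29 and Rpl7 by 2.71 ± 0.16 on the log2 scale (SE). Rpl7l1 did not pass in batch 2 alone or with the granulosa marker level as a covariate.

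The last pairs had paralogs close to the detection limit at both stages. Rpl32l had 311 reads over the 9 GV libraries of batch 1 and 59 over the 9 MII libraries, and 32 and 13 over the 7 and 7 libraries of batch 2. Its log2 ratio to Rpl32 rose by 0.72 (adjusted permutation p = 0.000513), but by 0.45 with an adjusted p of 0.095 when the prior count was 1. Rpl32l fell by 1.88 ± 0.39 on the log2 scale (SE), a call that did not pass with the granulosa marker level as a covariate, and Rpl32 fell by 2.04 ± 0.14. Rpl10l, an autosomal copy of the X-linked Rpl10 known from male germ cells, had 318 and 265 reads in batch 1 and 60 and 33 in batch 2. Neither its own change (−0.77 ± 0.48 on the log2 scale, adjusted p = 0.187 in the edgeR test) nor its ratio to Rpl10 (0.30, adjusted permutation p = 0.394) passed, and Rpl10 fell by 0.96 ± 0.09.

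**Figure D3:**
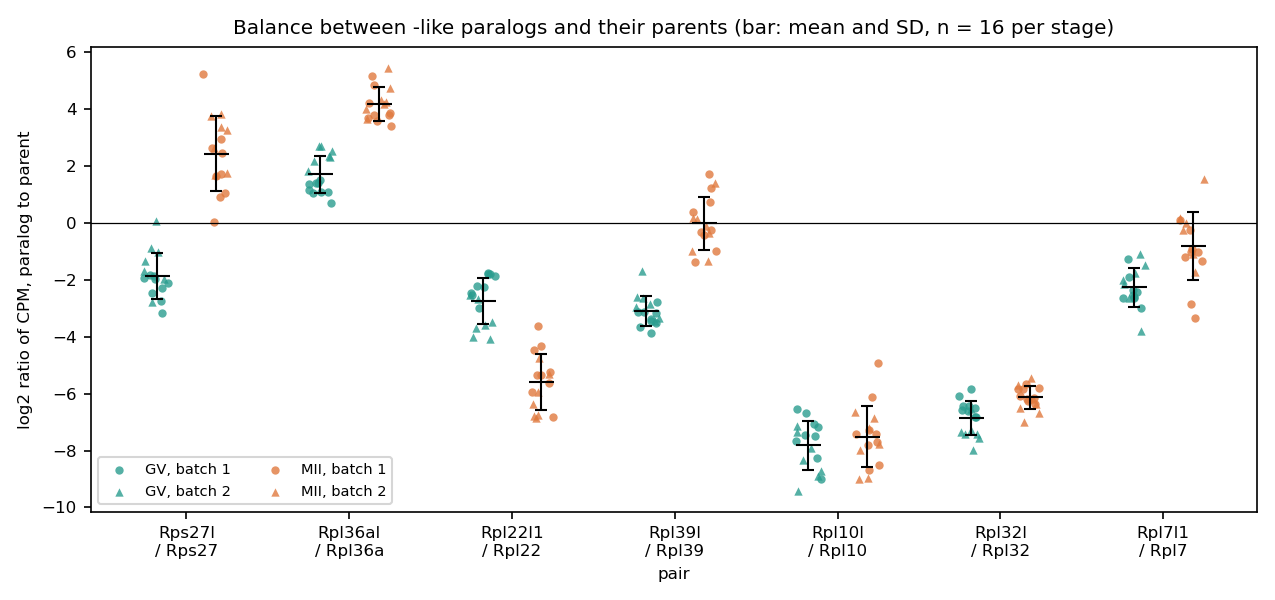
Log2 ratio of CPM of each -like paralog to its parent in 16 GV and 16 MII libraries, by batch, with the mean and SD. The ratio of Rps27l to Rps27 crosses 0 between the stages (−1.88 in GV, 2.42 in MII), that of Rpl36al to Rpl36a rises from 1.70 to 4.17 and that of Rpl22l1 to Rpl22 falls from −2.74 to −5.59.

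Between the inbred strains most ribosomal protein genes did not pass the test. In GV oocytes 8 of 84 differed between D2 and B6, 5 higher and 3 lower in D2, against 20.5% of all genes tested. In MII oocytes 18 differed, 11 higher and 7 lower in D2, against 26.4%. Both counts are at or below the background share. The median log2 difference of the core genes, D2 minus B6, was 0.23 in GV and 0.14 in MII, against −0.02 in both stages over all genes. Across the 77 core genes the differences in the 2 stages had a Pearson r of 0.666 and a lower Spearman rho of 0.44. They share no library but come from a fit with a common batch term.

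**Figure D4:**
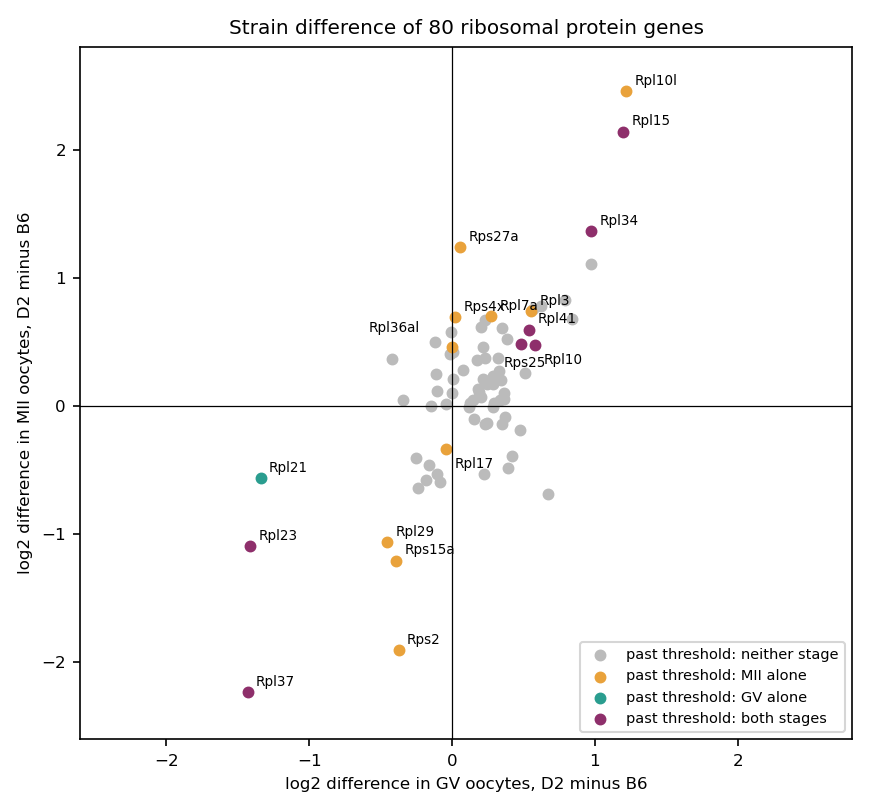
Log2 difference between D2 and B6 oocytes of 80 tested ribosomal protein genes, in GV (horizontal) and MII (vertical), coloured by the stage in which a gene passed the threshold. Rpl15 (1.20 and 2.14) and Rpl34 lie at the upper right and Rpl37 (−1.43 and −2.23) and Rpl23 at the lower left.

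Rpl15, a large subunit protein mutated in some human Diamond-Blackfan anaemia families, was highest in D2 and lowest in B6 at both stages. In batch 1 GV oocytes it was at 62.4, 94.7 and 105 CPM in B6, at 109, 135 and 141 in F1 and at 129, 150 and 211 in D2. In batch 1 MII oocytes it was at 35.0, 39.7 and 49.5 CPM in B6, at 70.4, 86.9 and 98.5 in F1 and at 132, 178 and 183 in D2. The strains did not overlap in MII, and in GV only F1 and D2 did.

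In batch 2 GV oocytes Rpl15 was at 20.5 and 41.9 CPM in B6, at 51.9, 61.0 and 77.7 in F1 and at 92.5 and 99.0 in D2, and in MII at 10.9 to 14.9, 33.5 and 38.4, and 61.3 and 70.5. The order of the strains was the same as in batch 1, again with F1 in between. The log2 difference between D2 and B6 was 1.20 ± 0.19 in GV and 2.14 ± 0.18 in MII (SE, adjusted p in the edgeR test 7.25e-06 and 1.33e-11). F1 was 0.76 ± 0.18 above B6 in GV and 1.22 ± 0.18 above it in MII, and 0.92 ± 0.19 below D2 in MII. The difference between F1 and B6 in GV did not pass in batch 1 alone or without the 3 GV libraries of low granulosa marker level.

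Rpl37, a zinc-binding protein of the large subunit, had the opposite order. In batch 1 GV oocytes it was at 179.7, 182 and 210.0 CPM in B6, at 128, 136 and 147 in F1 and at 61.3, 78.1 and 87.3 in D2. In batch 1 MII oocytes it was at 23.8, 32.8 and 35.4 CPM in B6, at 8.04, 9.62 and 13.8 in F1 and at 6.28, 8.01 and 13.3 in D2. In batch 2 it was at 29.1 and 41.5 CPM in B6 GV and 10.6 and 11.9 in D2 GV, and at 9.21 to 13.3 in B6 MII and 1.35 and 1.70 in D2 MII. B6 and D2 were separate in both stages and batches.

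The log2 difference of Rpl37, D2 minus B6, was −1.43 ± 0.24 in GV and −2.23 ± 0.26 in MII (SE, adjusted p in the edgeR test 2.94e-05 and 1.61e-08). F1 was 1.01 ± 0.24 above D2 in GV and 1.53 ± 0.25 below B6 in MII. Rpl37 shares 31.3% of its 50-base stretches with other genes, most with the retrocopy Rpl37rt, which has an entry of its own. That entry was also lower in D2, at 190 ± 121 CPM in B6 GV (SD, n = 5) and 55.9 ± 31.6 in D2 GV (SD, n = 5), with a log2 difference of −1.71 ± 0.26 (SE). How reads were divided between the gene and the copy was not tested.

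Rpl23 and Rpl21, large subunit proteins, were lower in D2 GV oocytes. Rpl23 was at 101, 120 and 125 CPM in B6, at 52.6, 60.5 and 111 in F1 and at 34.1, 46.7 and 55.8 in D2 in batch 1, and at 47.4 and 49.3, at 13.9 to 16.7 and at 10.2 and 23.4 in batch 2. B6 lay above D2 in each batch. The log2 difference was −1.41 ± 0.31 in GV and −1.09 ± 0.31 in MII (SE), though the latter did not pass in batch 2 alone. Rpl21 was at 72.0, 77.3 and 87.1 CPM in B6 and 31.2, 42.9 and 48.3 in D2 in batch 1, and at 60.3 and 100.4 and at 21.6 and 23.7 in batch 2, a log2 difference of −1.34 ± 0.24 (SE).

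Rpl34, of the large subunit, was higher in D2. It was at 51.9, 57.9 and 65.4 CPM in B6 GV and 71.0, 93.9 and 94.3 in D2 GV in batch 1, and at 4.63 and 9.66 and at 20.2 and 27.5 in batch 2. The log2 difference was 0.98 ± 0.25 in GV and 1.36 ± 0.25 in MII (SE). The GV value did not pass in batch 1 alone or without the 3 GV libraries of low granulosa marker level, and the MII value did not pass in batch 2 alone. The separate entry Rpl34-ps1, a copy with which Rpl34 shares part of its sequence, differed by 1.15 ± 0.25 in GV and 1.63 ± 0.25 in MII in the same direction.

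Rpl10, Rpl41 and Rps25 were also higher in D2 GV oocytes, by 0.58 ± 0.15, 0.54 ± 0.17 and 0.48 ± 0.17 on the log2 scale (SE). Rpl10 did not pass in batch 1 alone, Rpl41 in batch 2 alone or Rps25 in either batch alone. Rpl41 did not pass without B6 GV batch 2 replicate 2 (adjusted p = 0.0502 in the edgeR test). Rps25 did not pass without B6 GV batch 2 replicate 1 (0.173), D2 GV batch 2 replicate 2 (0.063) or D2 GV batch 1 replicate 3 (0.0505).

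In MII oocytes Rps2, of the small subunit, was at 28.8, 32.6 and 37.8 CPM in B6, at 12.2, 15.7 and 17.1 in F1 and at 7.68, 9.15 and 11.3 in D2 in batch 1. In batch 2 it was at 4.56 to 6.74 CPM in B6, at 2.04 and 4.45 in F1 and at 1.35 and 1.54 in D2. D2 was lowest in both batches, with a log2 difference from B6 of −1.91 ± 0.24 (SE, adjusted p in the edgeR test 6.07e-08).

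Rps15a was at 76.4, 83.1 and 90.8 CPM in B6 MII and 37.3, 39.6 and 45.8 in D2 MII in batch 1, and at 27.5 to 29.0 and at 8.98 and 12.0 in batch 2. It was 1.21 ± 0.17 lower in D2 on the log2 scale (SE), and the entry of its copy Rps15a-ps4 was 1.78 ± 0.20 lower. Rpl3, Rps27a and Rpl10l, the last at a very low level, were higher in D2 MII oocytes, by 0.74 ± 0.25, 1.24 ± 0.39 and 2.45 ± 0.84.

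Those 3 calls depended on the batch and on single libraries, since Rpl3 did not pass in either batch alone, Rps27a in batch 1 alone or Rpl10l in batch 2 alone. Rpl3 did not pass without B6 MII batch 2 replicate 3 (adjusted p = 0.0634), B6 MII batch 1 replicate 1 (0.0544) or D2 MII batch 1 replicate 2 (0.0501), all in the edgeR test. Rps27a, whose product is a fusion of ubiquitin with a small subunit protein, did not pass without D2 MII batch 2 replicate 2 (0.229). Rpl10l did not pass without B6 MII batch 2 replicate 1 (0.0515), B6 MII batch 1 replicate 3 (0.062) or D2 MII batch 1 replicate 3 (0.116).

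**Figure D5:**
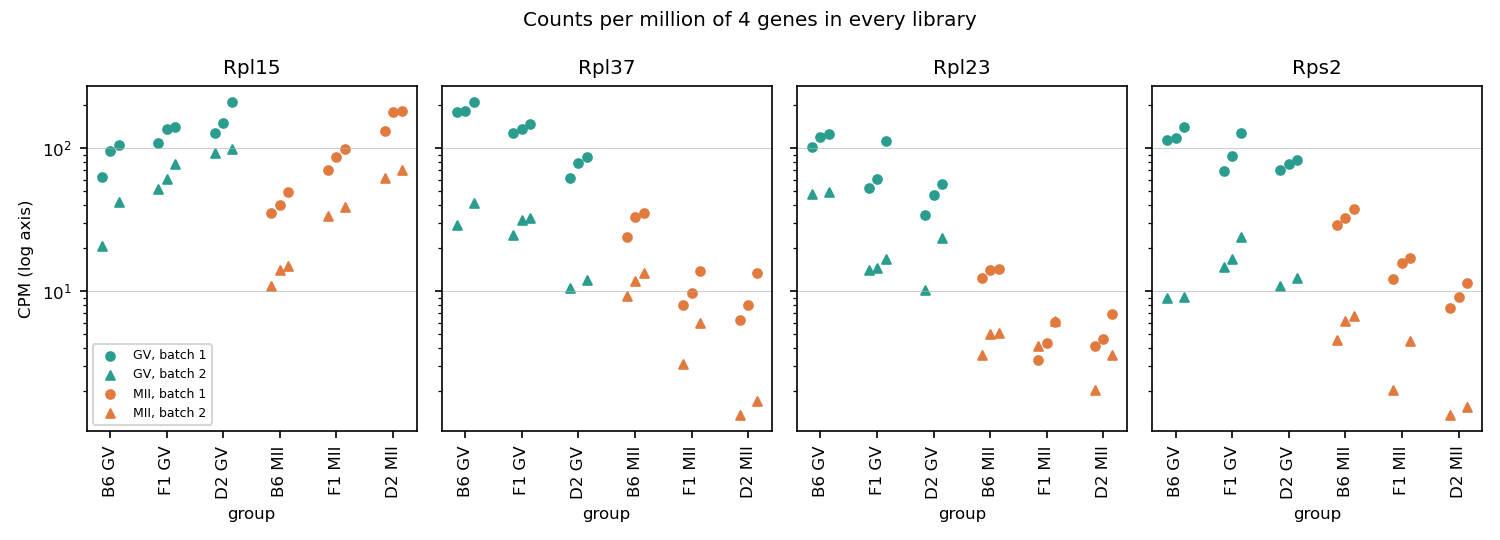
CPM on a log axis of Rpl15, Rpl37, Rpl23 and Rps2 in every library of the 6 groups, by stage and batch. Rpl15 runs upwards from B6 through F1 to D2 (35.0 to 49.5, 70.4 to 98.5 and 132 to 183 CPM in batch 1 MII), and Rpl37 and Rps2 run downwards in MII.

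Relative to the family's mean and averaged over the stages, 17 genes departed between D2 and B6, 9 higher and 8 lower in D2 (background 27.7%). The largest departures upwards were those of Rpl10l at 1.76 ± 0.61, Rpl15 at 1.57 ± 0.18, Rpl34 at 1.08 ± 0.18, Rps3 at 0.96 ± 0.26 and Rps27 at 0.65 ± 0.24 on the log2 scale (SE). The largest downwards were those of Rpl37 at −1.94 ± 0.20, Rpl23 at −1.42 ± 0.20, Rps2 at −1.23 ± 0.18, Rpl21 at −1.08 ± 0.20 and Rps15a at −0.94 ± 0.14. Rps27 and Rpl10l did not pass in either batch alone, and Rps2 and Rps3 did not pass in batch 2 alone. Rpl10l did not pass without D2 GV batch 2 replicate 2, B6 GV batch 1 replicate 5 or D2 MII batch 1 replicate 3, with adjusted p of 0.0535, 0.05002 and 0.0896 in the edgeR test. Rps27 did not pass without any of 10 libraries (adjusted p of up to 0.0738).

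The stage change itself differed between D2 and B6 for 1 of 84 genes, Rps2, as it did for 0.105% of all genes. Rps2 fell by 1.48 on the log2 scale in B6, by 2.64 in F1 and by 3.02 in D2, and the difference between D2 and B6 was −1.53 ± 0.32 (SE, adjusted p = 0.0367 in the edgeR test). The call was lost with the replicate block (adjusted p = 0.165), in batch 1 alone (0.122), in batch 2 alone (0.279), without a batch term (1.00), with limma-voom (0.289) and without the 3 GV libraries of low granulosa marker level (0.0728), with a log2 difference of −1.02 to −2.45. It held in DESeq2 (0.000644). The adjusted p in the edgeR test ranged from 0.0124 to 0.0899 over the fits that left out a library. It was above 0.05 without D2 MII batch 2 replicate 1 (0.0593), D2 MII batch 2 replicate 2 (0.0583), D2 MII batch 1 replicate 2 (0.0583) or D2 MII batch 1 replicate 4 (0.0899). The same held without B6 GV batch 2 replicate 1 (0.0591), B6 GV batch 2 replicate 2 (0.0759), B6 MII batch 2 replicate 1 (0.0611), B6 MII batch 2 replicate 2 (0.0609) or B6 MII batch 1 replicate 1 (0.0667).

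F1 oocytes were compared with each parent, and these comparisons share the F1 libraries. Against B6, 3 genes differed in GV (background 5.50%) and 7 in MII (7.36%). In GV Rpl15 and Rpl14 were higher in F1 and Rpl23 was lower, Rpl14 by 0.44 ± 0.13 and Rpl23 by −1.06 ± 0.29 on the log2 scale (SE). In batch 1 alone no gene passed in GV. The count in GV was 1, that of Rpl15, without F1 GV batch 2 replicate 1 or 2, F1 GV batch 1 replicate 3, or B6 GV batch 2 replicate 1 or 2. Rpl23 did not pass without any of 9 libraries (adjusted p of up to 0.0913) and Rpl14 without any of 7 (up to 0.200).

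In MII Rpl15 was higher in F1 than in B6, and Rpl37, Rpsa, Rps2, Rpl27 and Rpl41 were among those lower. The log2 difference was −1.48 ± 0.35 for Rpsa, −1.05 ± 0.23 for Rps2, −0.93 ± 0.19 for Rpl27 and −0.55 ± 0.17 for Rpl41 (SE). Of the genes named, all but Rpl15 did not pass in batch 2 alone, where 1 gene passed, and 11 passed in batch 1 alone. The shares over all genes in these fits of a single batch are not given here. In batch 2 the MII libraries of F1 and B6 were also of separate library sets, as described with the batches below. Rpl41 did not pass without any of 7 libraries (adjusted p of up to 0.146 in the edgeR test).

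Against D2, 2 genes differed in GV (background 6.05%) and 19 in MII (8.11%), of which 17 were lower in F1 (3.20% of all genes were lower). Neither gene of the GV comparison passed in batch 1 alone. In GV Rpl37 and Rpl21 were higher in F1, Rpl21 by 0.82 ± 0.23 on the log2 scale (SE). Rpl21 did not pass without any of 10 libraries (adjusted p of up to 0.133). In MII large differences were those of Rps19 at −2.16 ± 0.53, Rps27 at −2.0 ± 0.45, Rps27a at −1.61 ± 0.42 and Rplp1, a protein of the ribosomal stalk, at −1.43 ± 0.29. Rps15a and Rps2 were higher in F1, by 1.00 ± 0.17 and 0.86 ± 0.24.

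The MII count against D2 moved with the batch and with a library, since 21 genes passed in batch 1 alone, 4 in batch 2 alone and 12 without F1 MII batch 1 replicate 5. Batch 2 had fewer MII libraries of F1 and D2 than batch 1. The shares over all genes in these fits are not given here, so a move particular to the family cannot be told from a general one. Over the core genes the median log2 difference between F1 and D2 in MII was −0.34, with 61 of 77 below 0, against a median of −0.01 and 51.0% below 0 over all genes tested. Rps27a did not pass without D2 MII batch 2 replicate 2 (adjusted p = 0.0982). Rps2 did not pass without F1 MII batch 2 replicate 1 (0.0987) or D2 MII batch 1 replicate 4 (0.0591). All are adjusted p from the edgeR test. In batch 2 alone, of the genes named, Rps27a and Rps15a passed, and in batch 1 alone Rps27a and Rps2 did not.

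The batches differed more than the strains. With stage and strain in the model, 81 of 84 ribosomal protein genes were higher in batch 1 (background 23.6%), and Rpl4, Rps6 and Rps3 did not pass. The median log2 difference of the core genes was 1.49, against 0.11 over all genes, and the largest was that of Rplp1 at 3.70 ± 0.17 (SE). Both batches held both stages and all strains, so the stage and strain comparisons above are made within batches. Batch 1 was a single library set, but the other batch held separate sets. There, all B6 libraries were of a single set and all F1 MII libraries of another. The F1 GV libraries and those of D2 were split between these sets. Set was not a term in the main fit. Within that batch, strain and set cannot be told apart for F1 against B6 in MII. They are partly mixed in the other strain comparisons. The effect of the sets was not tested. The cause of the batch difference was not tested.

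Genes outside the family that are known for TOP tracts or that work in elongation were compared across the stages as a list of 25. Of these 18 fell (background 29.0%), 4 rose (22.9%) and 3 did not pass, and their median log2 change was −0.63, against −0.06 over all genes tested. Fau, which encodes a ribosomal protein fused to a ubiquitin-like protein, had a log2 fall of 3.03 ± 0.16 (SE). Pabpc1, the cytoplasmic poly(A)-binding protein, fell from 83.2 ± 32.9 to 28.8 ± 15.4 CPM (SD, n = 16 each), by 1.64 ± 0.17 on the log2 scale (SE). Eef1g fell by 3.08 ± 0.20, while Eef1a1, the elongation factor that brings tRNA, was at 479 ± 122 and 460 ± 69.8 CPM with a change of −0.03 ± 0.07. Npm1, a nucleolar chaperone, rose by 0.48 ± 0.09, and Eif4b, Ybx1 and Eif4a2 rose by 0.26 ± 0.08, 0.40 ± 0.09 and 0.46 ± 0.08.

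Of 15 regulators of TOP messages, 7 rose (background 22.9%), 3 fell (29.0%) and 5 did not pass, with a median log2 change of 0.06. Larp1, which binds the tract, had a log2 fall of 0.54 ± 0.12 (SE). Tia1, an RNA-binding protein of stress granules, fell from 5.55 ± 4.70 to 0.324 ± 0.466 CPM (SD, n = 16). Larp4, a related poly(A)-binding protein, rose by 0.51 ± 0.07, Ssb, the La protein, by 0.55 ± 0.11 and Mtor by 0.21 ± 0.06. Of 12 chaperones of ribosomal proteins and ribosome quality factors with an entry, 4 fell, 3 rose and 5 did not pass, with a median of 0.01. Aarsd1, on the list but named for an alanyl-tRNA synthetase domain and not an established member of these classes, fell by 2.56 ± 0.24. Eif6, which keeps the subunits apart, fell by 1.14 ± 0.12. Bccip, whose yeast counterpart is a chaperone of Rpl23, rose from 5.65 ± 2.10 to 12.0 ± 4.22 CPM. Tsr2, in yeast a chaperone of Rps26, was at 0.726 ± 0.725 and 0.0967 ± 0.136 CPM and fell by 2.74 ± 0.71 on the log2 scale.

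The genes outside the family whose log2 CPM followed the core mean most closely over the 32 libraries were, as a description, Gm12191 with a Pearson r of 0.984, Gm7429 with 0.983, Gm3362 with 0.982, Rps12l1 with 0.980, Ndufa3 with 0.978, Rps3a3 with 0.977, Rpl13-ps6 with 0.976, Rps3a2 with 0.974, Fau with 0.972 and Rps13-ps4 with 0.972. Several are named as copies of ribosomal protein genes, whose reads can be shared with their parents. Rps27rt, a retrocopy of Rps27 with its own entry, was at 65.3 ± 52.7, 89.2 ± 75.5 and 111 ± 96.6 CPM in B6, F1 and D2 GV oocytes (SD, n = 5, 6 and 5), against 63.1 ± 50.1, 87.6 ± 73.4 and 108 ± 93.9 for Rps27 itself.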

How the data were processed

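RNA of pooled oocytes was amplified by single primer isothermal amplification (SPIA) and sequenced as single reads of 50 nt, per the labels' protocols. Per the submitters' processing notes, HISAT2, SAMtools, featureCounts of Subread 1.5.1, DESeq2 1.16.1 and GRCm38.p4 were used. Raw read counts per gene are what the authors deposited, and 3 of the 37444 entries, naming no gene (at most 0.019% of a library), were left out. Strand and multi-mapping settings are not given in the sources used here. Names, lengths and starts came from GENCODE M21 and RefSeq tables, which named 36371 genes.

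After filterByExpr with the 6 groups 19003 genes were left, scaled by TMM. Robust edgeR quasi-likelihood fits to 32 libraries had group and batch as terms, with two-sided Benjamini-Hochberg adjustment within each contrast and a threshold of 0.05. The SE was the log2 change divided by the square root of F. Log2 CPM used a prior count of 3. Paralog ratios were compared by permutation with 100000 resamples, and exactly within batches. Fits were tested on simulated data. Pools came from separate mothers. Depth limits precision mainly for members under 1 CPM, and counts without molecular identifiers cover reads, not molecules.

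Named members were the 5 largest and 5 smallest stage changes of core genes, every member not past the threshold there, all called members of a strain contrast up to 10 or otherwise 5 per direction, the 5 largest departures from the family mean per direction, paralogs with their parents, and the 5 highest and lowest levels per kb. Some genes that this rule names are not reported here. The single genes named from the pathway lists were chosen after their values were seen. The members and lists were chosen with earlier results of these data known. Other scalings, filters, tools, batches, terms and left-out libraries were tried. Fits used edgeR 4.0.16 with limma 3.58.1 in R 4.3.3, and DESeq2 1.42.0 as an alternative. Tables and plots used scipy 1.17.1, pandas 2.3.3, numpy 2.4.6 and matplotlib 3.10.9 under Python 3.11.15.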

Additional observations from a re-analysis of the deposited data

Results flagged for a closer look

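In 234 checks of groups of 5 or 6 libraries, covering the mean over the core genes and 38 named genes, 5 libraries stood apart from the others of their group, where chance flags about 1 in 20 groups. Rpl10l was at 2.34 CPM in D2 GV batch 1 replicate 3, above the other D2 GV libraries. Rpl7l1 was at 4.98 CPM in F1 MII batch 1 replicate 4, above the other F1 MII libraries. D2 MII batch 2 replicate 2 stood apart for Rps27a, at 5.11 CPM above the others, and for Rps19, at 0.712 CPM below them. Rps3 was at 121 CPM in F1 GV batch 1 replicate 5, above the other F1 GV libraries. The fall of Rps2 from GV to MII was larger in D2 than in B6, with a tested log2 difference of −1.53 ± 0.32 (SE, adjusted p = 0.0367 in the edgeR test), a call lost with the replicate block (0.165), with limma-voom (0.289) and within either batch (0.122 and 0.279).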

How the results depend on the processing

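Of 184 recounts of ribosomal protein genes past the threshold under other settings, 155 stayed within 1.5 times the reported count. The counts of genes lower in MII stayed there under every setting run, at 73 to 81 genes for the mean of strains, 64 to 77 in B6, 60 to 82 in F1 and 64 to 79 in D2. The log2 stage change of Rpl4 turned to −0.0079 with the filter of 1 CPM in 16 libraries and to −0.037 in batch 2 alone. Without a batch term, counts were 1 (D2 and B6, GV), 2 (D2 and B6, MII), 9 (departing from the family mean, D2 against B6) and 0 for every F1 comparison and for the stage change between D2 and B6. In batch 1 alone, 0 genes differed between F1 and B6 in GV and between F1 and D2 in GV, 11 between F1 and B6 in MII and 0 in stage change. In batch 2 alone, 8 differed between D2 and B6 in MII, 1 between F1 and B6 in MII, 1 and 4 between F1 and D2 in GV and MII, 0 in stage change, and 7 departed between D2 and B6. With the compared groups alone, counts were 5 (F1 and B6, GV) and 10 (F1 and D2, MII), and limma-voom gave 10 (F1 and D2, MII) and 0 (stage change). Without the 3 GV libraries of low granulosa marker level, counts were 0 (F1 and B6, GV) and 1 (F1 and D2, GV), and with no filter 1 (F1 and D2, GV). DESeq2 and the granulosa covariate each gave 2 for the stage change. Libraries of the same number within a strain and batch did not deviate together, with correlations from −0.131 to 0.0958 over 11 pairs. The replicate block gave 81 genes lower in MII, 1 gene between F1 and B6 in GV and 0 for the stage change. The cause of these moves was not tested, and the shares over all genes under other settings and left-out libraries are not given here.

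Leaving out each library in turn gave 81 to 81 genes lower in MII for the mean of strains, 73 to 77 in B6, 78 to 81 in F1 and 77 to 78 in D2. It gave 7 to 12 and 15 to 20 between D2 and B6 in GV and MII, 1 to 3 and 6 to 10 between F1 and B6, 1 to 2 and 12 to 21 between F1 and D2, 0 to 2 for the stage change, and 81 to 82 for the batch. It gave 66 to 69 genes departing from the family mean between stages and 13 to 18 between D2 and B6. The count of 1 between F1 and D2 in GV arose without D2 GV batch 2 replicate 1 or 2, D2 GV batch 1 replicate 4, F1 GV batch 1 replicate 3 or 5, F1 MII batch 1 replicate 4, B6 MII batch 1 replicate 2 or B6 GV batch 1 replicate 4. The stage change count of 2 arose without B6 GV batch 1 replicate 2, B6 MII batch 1 replicate 2 or D2 GV batch 1 replicate 5. The log2 ratio of Rps27l to Rps27 rose by 4.12 to 4.46 between stages, Rpl36al by 2.39 to 2.54, Rpl39l by 2.96 to 3.18, Rpl7l1 by 1.29 to 1.62, Rpl32l by 0.65 to 0.79 and Rpl10l by 0.12 to 0.40, and that of Rpl22l1 ran from −2.98 to −2.77. With a prior count of 1, chosen after seeing the data, the ratio of Rpl32l rose by 0.45 and that of Rpl22l1 changed by −3.30. Of 3658 values of named genes under other settings, 200 fell short of the threshold in the same direction.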
